A study of Mus musculus with 42 samples.

Results

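Liver RNA of mice fed a high-fat diet (HFD) was compared between ZT 20 and ZT 8, hours that lie 12 h apart in the dark and the light phase. The comparison took every HFD library labelled with either hour, 3 at ZT 20 (titled Y25_3, Y32_1, and Y36_1) and 3 at ZT 8 (Y38_3, Y41_2, and Y48_3), that is 6 of the 42 libraries of the series. They were chosen by their diet and hour labels, and all 6 held the high Alb level of liver given below. Zeitgeber time (ZT) counts the hours from lights on at ZT 0, and lights went off at ZT 12.

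The series holds 14 groups of 3 mice, with 2 diets at 7 hours. All mice of the 6 libraries were female C57BL/6 (C57BL/6NHsd in the study's methods) bought at 3 weeks of age, group-housed, given the standard diet briefly, and then fed the HFD, an altered AIN93G with 45% of its energy from soybean oil, for 3 weeks. Neither group was fasted. The standard diet, AIN93G, with 16% of energy from soybean oil, entered as a set of 3 ZT 8 libraries given beside some values and in alternative fits that shared the spread of all 42 libraries. Each library came from the liver of 1 mouse and was made from poly(A) RNA with a kit that does not mark strand, so reads of genes that overlap on opposite strands cannot be told apart.

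Total counts of the 6 libraries ran from 15780724 to 17529275. Alb, the plasma protein albumin of hepatocytes, held 68578 to 111532 CPM (counts scaled to the same total in each library, with TMM factors), and the summed level of 20 hepatocyte markers ran from 145990 to 177081 CPM at ZT 8 and from 130774 to 174679 CPM at ZT 20. Over the series, 10 libraries held only 18.7 to 81.0 CPM of Alb before TMM scaling, and none of them was among the 6. The adipocyte hormone Adipoq lay between 0 and 0.395 CPM and the basal keratin Krt5 at 0. Of 7 skeletal muscle markers, the summed level was 45.1 CPM in Y38_3, 3.97 CPM in Y41_2, and 142 CPM in Y48_3 at ZT 8, against 4.42 to 12.7 CPM at ZT 20. All 7 had a log2 fold change below 0 (median -3.39). None passed the edgeR test or limma-trend, 7 had an unadjusted p under 0.05, and 2 were lower by DESeq2. What muscle RNA in Y38_3 and Y48_3 contributes to other genes was not tested, and counts of changed genes without either library are given below.

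The mammalian clock is a loop of transcription factors. BMAL1 (gene Arntl) pairs with CLOCK or NPAS2, binds E-box DNA, and switches on the Per and Cry genes, whose proteins return to block it, as well as Nr1d1 and Nr1d2, which encode the REV-ERB repressors of Arntl. In liver this loop and the feeding cycle set daily rhythms of lipid, bile acid, and carbohydrate enzymes.

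At ZT 20, 191 genes were higher and 144 lower than at ZT 8, of 12013 genes tested by edgeR (quasi-likelihood) at a Benjamini-Hochberg adjusted p under 0.05. That is 1.59% of the genes tested for the higher and 1.20% for the lower direction. The median log2 fold change was 1.29 among the higher and -1.19 among the lower genes, and -0.0032 over all genes tested. A change of more than 4-fold was found for 39 higher and 23 lower genes. The 3 libraries of an hour did not overlap with those of the other for 335 of these 335 genes, and for 20.7% of all genes tested. An unadjusted p under 0.05 was found for 1791 genes.

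Leaving out a ZT 20 library lowered these counts the most. Without Y25_3, 110 genes were higher and 58 lower, without Y32_1 111 and 52, and without Y36_1 108 and 69. Without Y38_3, 146 were higher and 105 lower, without Y41_2 175 and 137, and without Y48_3 184 and 150. All 335 genes kept their direction in the 6 fits that each left out 1 library. Groups that do not overlap make this all but certain, so it adds no support. Of the 335 genes, 115 passed in all 6 fits. Changes are called below where they passed in the fit of all 6 libraries, and the omissions that lost a call are named beside it.

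**Figure D1:**
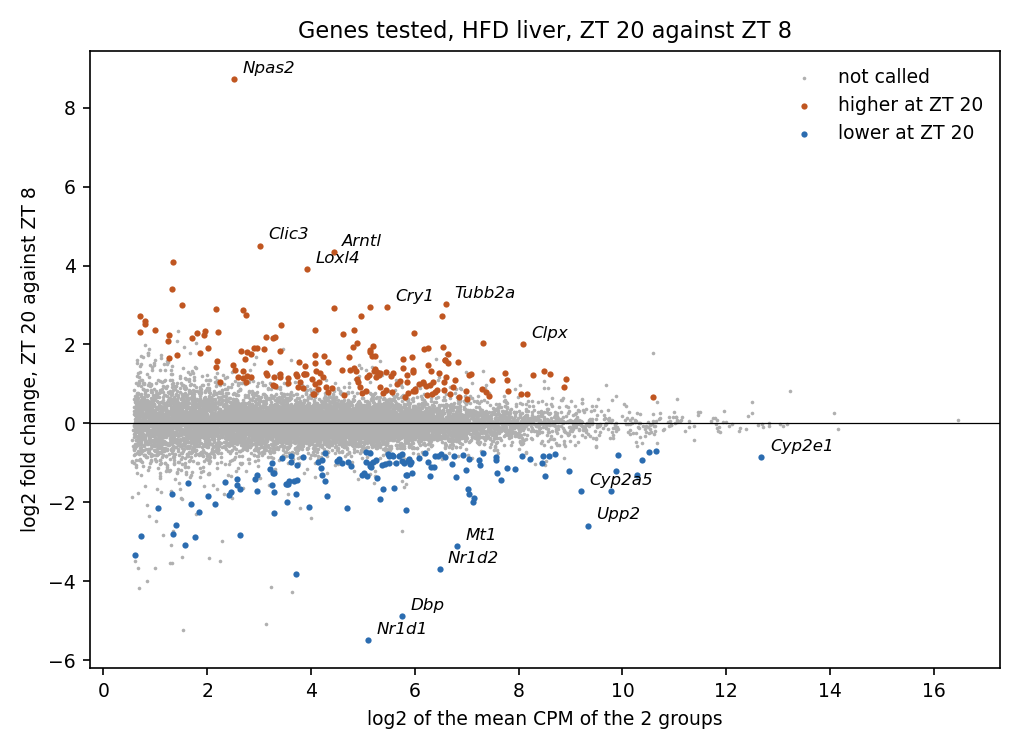
Each point is 1 of the 12013 genes tested, with the log2 of its mean CPM over the 2 groups on the x axis and its log2 fold change, ZT 20 against ZT 8, on the y axis. The 191 genes higher at ZT 20 are orange, the 144 lower ones blue, and the rest grey. Npas2 is the highest point and Nr1d1 the lowest, and Clic3, Arntl, and Dbp are labelled near them.

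The largest log2 fold change among called genes was that of a clock gene in each direction, Npas2 among the higher and Nr1d1 among the lower genes. Of 28 genes of the clock lists, all tested, 6 were higher at ZT 20, 8 were lower, and 14 did not pass. Over all genes tested, 1.59% were higher and 1.20% lower. These shares stand beside every list count below, and no list was tested against them. The positive limb, which drives transcription, had 4 of 5 genes higher and none lower (median log2 fold change 2.04). The negative limb had 1 of 14 genes higher and 6 lower (median -0.35), and the output regulators had 1 of 10 higher and 3 lower (median -1.22), Ciart being counted in both of these lists.

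Npas2 (chromosome 1, 39193731 to 39363236 in the coordinates of the deposited table, build mm10), a partner of BMAL1, was at 0, 0.0568, and 0 CPM in the ZT 8 libraries Y38_3, Y41_2, and Y48_3, at most 1 count each. At ZT 20 it was at 9.76, 12.0, and 12.6 CPM in Y25_3, Y32_1, and Y36_1, and the same order of libraries is kept below. Against a floor of 3 counts per library it was at least 61.8-fold higher at ZT 20 (adjusted p = 1.72e-05).

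Arntl (chromosome 7, 113207465 to 113314126), which encodes BMAL1, was at 2.47, 2.10, and 1.53 CPM at ZT 8 and at 41.5, 42.005, and 40.0 CPM at ZT 20. The groups were far apart, and the ZT 20 libraries differed little from each other. The log2 fold change was 4.34 ± 0.21 (SE, adjusted p = 3.46e-06). Clock itself, the usual partner of BMAL1, rose less, from 45.1 ± 10.3 to 90.5 ± 23.8 CPM (SD, n = 3 each; log2 fold change 1.00 ± 0.22, adjusted p = 0.0419), and its call was lost without Y25_3, Y32_1, Y38_3, or Y41_2 (adjusted p up to 0.156).

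Rora, a nuclear receptor that activates Arntl, stood at 91.4 ± 19.3 and 102 ± 14.03 CPM at ZT 8 and ZT 20 and did not pass (log2 fold change 0.16 ± 0.19, adjusted p = 0.759).

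The REV-ERB repressors moved the other way. Nr1d1 (REV-ERB alpha; chromosome 11, 98767932 to 98775333) was at 51.8, 77.7, and 70.9 CPM at ZT 8 and at 1.496, 1.20, and 1.78 CPM at ZT 20, a log2 fold change of -5.49 ± 0.25 (adjusted p = 2.65e-06). Nr1d2 (REV-ERB beta; chromosome 14, 18204054 to 18239127) was at 155, 138, and 203 CPM at ZT 8 and at 10.8, 14.8, and 12.7 CPM at ZT 20, a log2 fold change of -3.70 ± 0.21 (adjusted p = 1.55e-05). Thra, which overlaps Nr1d1 on the opposite strand, was at 12.1 ± 4.19 CPM at ZT 8 and 11.7 ± 0.99 CPM at ZT 20.

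The period and cryptochrome genes did not move together. Per1 fell from 49.4, 40.996, and 52.1 CPM to 20.7, 25.8, and 20.7 CPM (log2 fold change -1.08 ± 0.17, adjusted p = 0.00771). Per3 (chromosome 4, 151003652 to 151044665) fell from 89.1, 58.3, and 131 CPM to 31.004, 14.6, and 15.0 CPM (log2 fold change -2.20 ± 0.35, adjusted p = 0.00879), a call lost without Y32_1 (adjusted p = 0.0547). Per2 was at 43.3, 24.8, and 45.7 CPM at ZT 8 and at 82.5, 66.6, and 34.1 CPM at ZT 20, groups that overlapped, and did not pass (log2 fold change 0.69 ± 0.32, adjusted p = 0.346).

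Cry1 (chromosome 10, 85131700 to 85185064), a strong inhibitor of the BMAL1 complex, was at 15.6, 5.34, and 9.42 CPM at ZT 8 and at 75.5, 87.8, and 71.5 CPM at ZT 20. It was the only called gene of the negative limb that was higher at ZT 20 (log2 fold change 2.95 ± 0.32, adjusted p = 0.00118). Cry2 had similar levels, 43.7 ± 4.36 and 45.5 ± 1.77 CPM (log2 fold change 0.06 ± 0.15, adjusted p = 0.907).

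Ciart (chromosome 3, 95878503 to 95882251), a repressor of the BMAL1 complex, fell from 38.4, 13.3, and 21.8 CPM to 2.15, 1.55, and 1.45 CPM (log2 fold change -3.82 ± 0.39, adjusted p = 7.42e-04). Bhlhe41, another E-box repressor, fell from 2.79 ± 1.16 to 0.275 ± 0.264 CPM (adjusted p = 0.0349), a call lost without any 1 of the 3 ZT 20 libraries (adjusted p up to 0.144). Its relative Bhlhe40 and the kinases and ubiquitin ligase subunits Csnk1d, Csnk1e, and Fbxl21 did not pass, with log2 fold changes between -0.37 and 0.24.

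Among output regulators, Dbp and Tef encode activators and Nfil3 a repressor of the same DNA element, the D-box. Dbp (chromosome 7, 45705088 to 45710203) fell from 97.1, 117, and 100.01 CPM to 3.47, 3.47, and 3.62 CPM, a log2 fold change of -4.89 ± 0.18 (adjusted p = 5.89e-07). Sphk2, which overlaps Dbp on the opposite strand, was at 40.5 ± 8.14 CPM at ZT 8 and 48.9 ± 13.7 CPM at ZT 20 and did not pass. Tef fell from 335, 220, and 327 CPM to 112, 127, and 87.4 CPM (log2 fold change -1.44 ± 0.21, adjusted p = 0.00555). Nfil3 (chromosome 13, 52967209 to 52981073) rose from 11.8, 15.6, and 18.04 CPM to 56.3, 52.8, and 66.3 CPM (log2 fold change 1.95 ± 0.19, adjusted p = 5.98e-04).

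The activators Dbp and Tef and the repressor Nfil3 of the D-box thus moved in opposite directions. Their groups did not overlap between hours, as was so for all 335 called genes and for 20.7% of all genes tested. Hlf, the remaining activator of that family, did not pass (log2 fold change -0.49 ± 0.20, adjusted p = 0.267). Usp2 (-1.41 ± 0.42, adjusted p = 0.118) and Noct (-1.62 ± 0.40, adjusted p = 0.0675), a deubiquitinase and a phosphatase with daily rhythms, did not pass either.

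**Figure D2:**
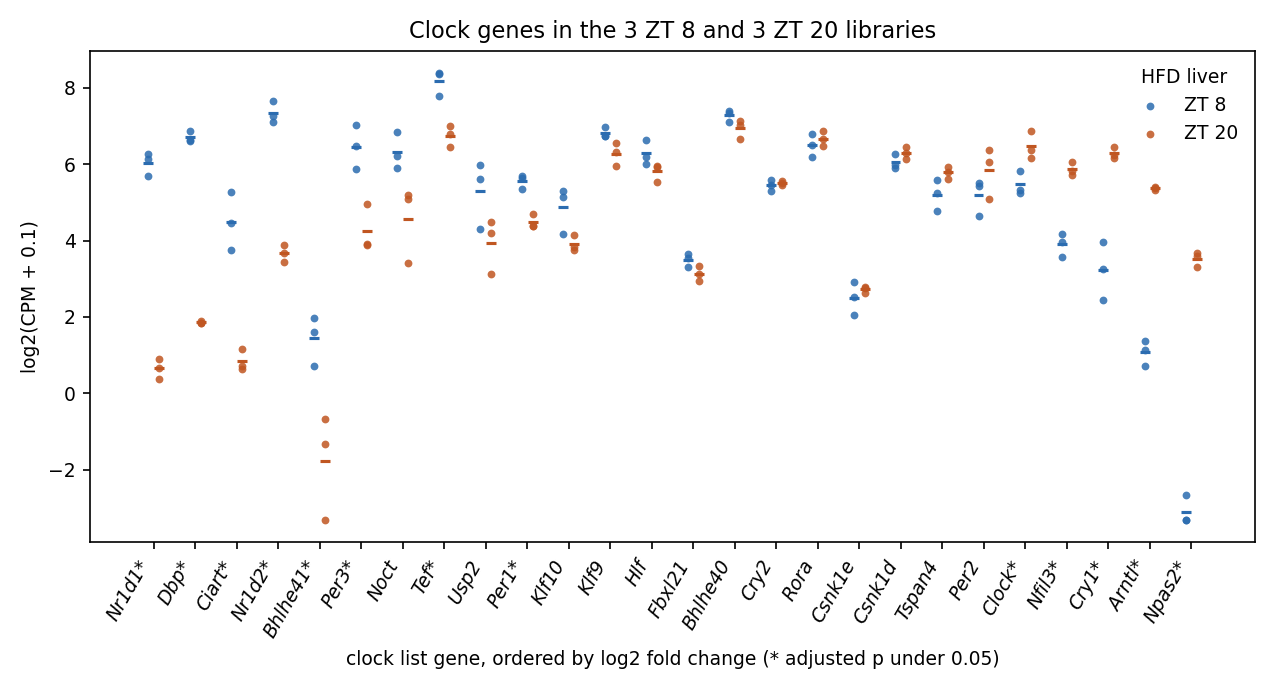
Points are the 3 ZT 8 libraries (blue) and the 3 ZT 20 libraries (orange) for 26 clock list genes, ordered by log2 fold change, as log2(CPM + 0.1), and short bars are group means of these values. The 13 genes marked with an asterisk passed, from Nr1d1 on the left to Npas2 on the right, whereas Per2 shows overlapping groups.

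Promoter sequences are shown for 4 of these genes as examples of windows that hold 1 of 3 DNA words known for clock factors. They are from RefSeq (GRCm38.p6), 5′ to 3′ on the gene's strand, and stop where the gene model of the deposited table begins, except that only the last 30 bases before the RefSeq start are given for Nfil3. Capitals mark the E-box CACGTG, the D-box TTATGTAA or TTACGTAA, and the ROR and REV-ERB element TAGGTCA, each searched on both strands without overlap between words.
Ciart, chr3:95882252-95882478, minus strand, fell: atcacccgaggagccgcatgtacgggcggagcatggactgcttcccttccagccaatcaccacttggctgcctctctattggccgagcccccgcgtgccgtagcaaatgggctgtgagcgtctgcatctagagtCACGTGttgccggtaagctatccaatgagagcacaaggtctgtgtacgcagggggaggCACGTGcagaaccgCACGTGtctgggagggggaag
Cry1, chr10:85185065-85185304, minus strand, rose: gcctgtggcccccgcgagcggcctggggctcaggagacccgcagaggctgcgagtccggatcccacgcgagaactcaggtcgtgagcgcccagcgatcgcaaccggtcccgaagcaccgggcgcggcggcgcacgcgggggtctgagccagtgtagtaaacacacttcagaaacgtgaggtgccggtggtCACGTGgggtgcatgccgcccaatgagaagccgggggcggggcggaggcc
Per3, chr4:151044666-151044915, minus strand, fell: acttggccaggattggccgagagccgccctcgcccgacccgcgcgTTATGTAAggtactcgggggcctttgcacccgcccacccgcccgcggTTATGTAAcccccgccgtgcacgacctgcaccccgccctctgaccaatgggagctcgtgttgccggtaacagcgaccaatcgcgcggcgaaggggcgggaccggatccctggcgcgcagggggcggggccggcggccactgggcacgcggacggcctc
Nfil3, chr13:52981040-52981069, minus strand, rose: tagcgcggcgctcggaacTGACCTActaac

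The Ciart stretch holds 3 E-boxes and fell 14.2-fold, while the Cry1 stretch holds 1 and rose 7.74-fold, so the same 6 letters stood before genes that moved in opposite directions. The Per3 stretch holds 2 D-boxes, and Nfil3 holds the TAGGTCA word on its other strand, 12 bases before the start. Over windows of 300 bases (250 before to 50 after a start), CACGTG was found in 7.15% of all 32851 RefSeq windows, the D-box words in 1.06%, and TAGGTCA in 2.61%. By gene, a window with CACGTG was found for 11.7% of 9247 tested genes with a window, 14 of 149 higher genes (9.40%), and 22 of 109 lower genes (20.2%). TAGGTCA was found for 2.53% of the tested genes, 9 higher genes (6.04%), among them Arntl, Nfil3, Slc45a3, and Tjp3, and 2 lower genes (1.83%). The D-box words were found for 0.919% of the tested genes, 3 higher genes (2.01%), and 2 lower genes (1.83%). The windows of Npas2, Nr1d1, Nr1d2, Dbp, and Clock held none of the words, and 1 of 2 windows of Per1 and every window of Tef and Bhlhe41, which are not printed, held CACGTG. These are descriptions of letters in windows and were not tested.

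The other HFD hours place both groups within the day. With CPM scaled over the 18 HFD libraries of ZT 0 to ZT 20, the median of Arntl started at 45.8 CPM (ZT 0), fell through 16.0 (ZT 4) to 2.10 (ZT 8) and 1.78 CPM (ZT 12), and came back through 23.2 (ZT 16) to 41.8 CPM (ZT 20). Npas2 was at 17.4 to 22.5 CPM at ZT 0 and at 9.81 to 12.7 CPM at ZT 20, and between 0 and 2.41 CPM in all libraries of ZT 4, ZT 8, and ZT 16. ZT 8 held the lowest or nearly the lowest Arntl and Npas2 levels, and ZT 20 stood beside ZT 0.

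Nr1d1 was at 52.1 to 77.8 CPM in the libraries of ZT 4 and ZT 8 and at 1.20 to 1.79 CPM at ZT 20. Median Dbp was highest at ZT 8, 101 CPM, and was 0.494 CPM at ZT 0 and 3.49 CPM at ZT 20. Per2 rose to 118 to 123.5 CPM at ZT 16, between the hours compared, and the median was 43.6 CPM at ZT 8 and 66.8 CPM at ZT 20. At ZT 12 the HFD library Y39_1 stood apart, with 38.6 CPM of Arntl and 0.131 CPM of Dbp against 0.936 to 1.78 and 63.0 to 79.2 CPM in the other libraries of that hour. It was not used in the comparison of ZT 20 with ZT 8.

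**Figure D3:**
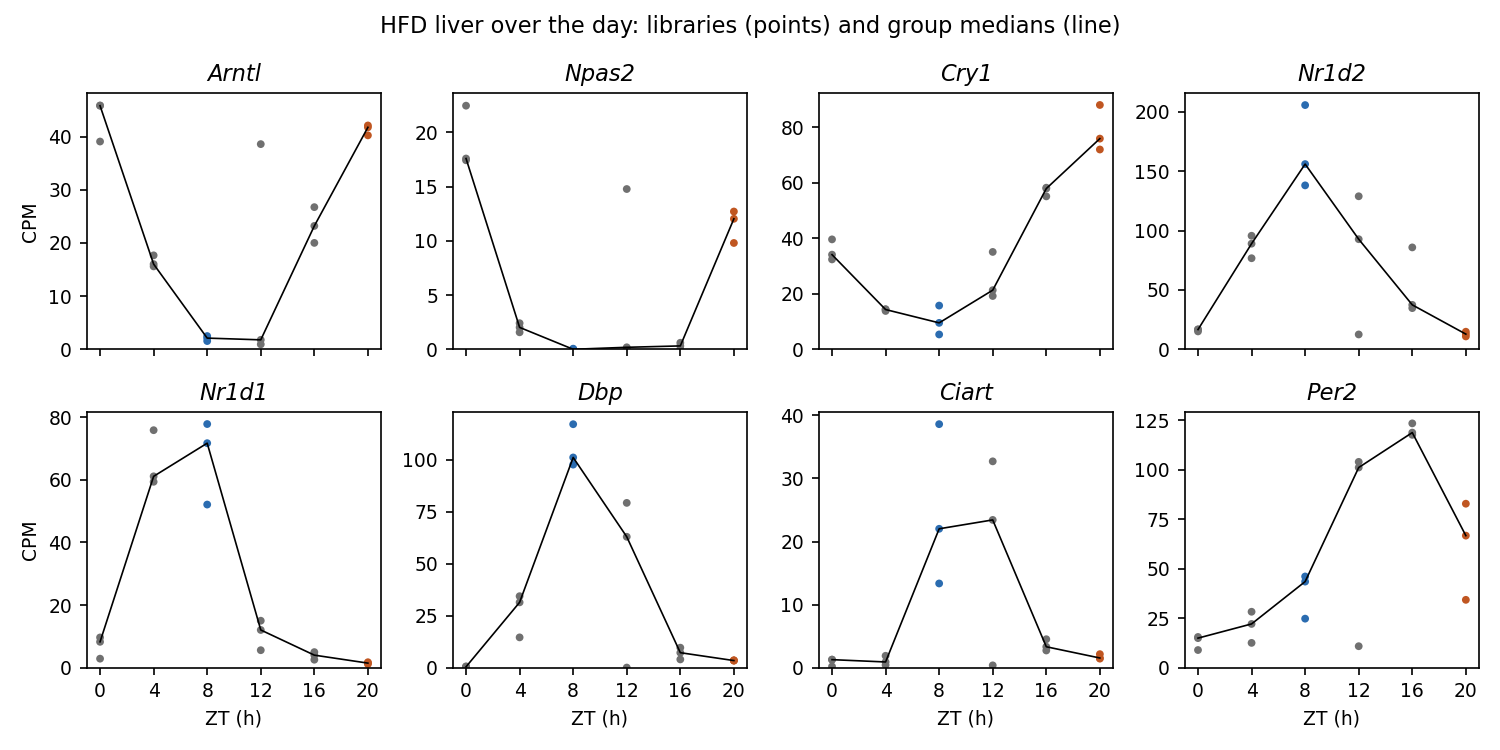
CPM of 8 clock genes in HFD liver (y axis) by hour of the day (x axis, ZT in h), with 3 libraries at each hour as points, those of ZT 8 in blue and of ZT 20 in orange, and group medians as a line. Arntl and Npas2 are low at ZT 8 and high at ZT 20, Nr1d1, Dbp, and Ciart show the reverse, and Per2 is highest at ZT 16.

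Outside the clock lists, the largest rises by the naming rule (protein-coding genes with a mean of at least 5 CPM in the higher group) included an enzyme of phospholipid synthesis. Clic3, a chloride intracellular channel family member, rose from 0.619, 0.738, and 0.681 CPM to 22.7, 17.3, and 6.64 CPM (log2 fold change 4.50 ± 0.47, adjusted p = 7.68e-04). It overlaps Paxx on the opposite strand, a DNA repair gene that also rose, from 8.35 ± 2.47 to 40.5 ± 14.8 CPM. Loxl4 (chromosome 19, 42593982 to 42612813), a lysyl oxidase that cross-links matrix proteins, rose from 1.42, 2.33, and 1.87 CPM to 24.1, 25.5, and 35.5 CPM (log2 fold change 3.91 ± 0.25, adjusted p = 2.80e-05).

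Tubb2a, a beta tubulin, rose from 25.4, 19.5, and 18.8 CPM to 185, 180, and 154 CPM (log2 fold change 3.02 ± 0.18, adjusted p = 1.72e-05). Chka, the choline kinase that opens phosphatidylcholine synthesis, rose from 30.7, 20.7, and 21.2 CPM to 163, 182, and 137 CPM (log2 fold change 2.73 ± 0.21, adjusted p = 9.67e-05). In both genes the lowest ZT 20 library was over 4 times the highest ZT 8 library.

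Ppard, the nuclear receptor PPAR delta, rose from 8.72, 6.87, and 9.08 CPM to 51.1, 52.7, and 58.2 CPM (log2 fold change 2.71 ± 0.17, adjusted p = 2.57e-05). Dnmt3b, a DNA methyltransferase, rose from 1.55 ± 0.35 to 11.4 ± 1.49 CPM (adjusted p = 4.24e-04). Capn11, a calpain protease, rose from 1.05 ± 0.76 to 7.94 ± 3.05 CPM (adjusted p = 0.0184), a call lost without Y32_1 or Y36_1 (adjusted p up to 0.0916). Pdk4, the kinase that shuts pyruvate dehydrogenase, rose from 6.37, 3.46, and 5.33 CPM to 27.95, 10.7, and 76.4 CPM with a wide spread at ZT 20 (log2 fold change 2.92 ± 0.59, adjusted p = 0.0258), and the call was lost without Y25_3, Y38_3, Y41_2, or Y48_3 (adjusted p up to 0.0807).

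Upp2, a uridine phosphorylase of liver, was among the 12 largest falls. It fell from 1279, 864, and 1178 CPM to 187, 193, and 170 CPM (log2 fold change -2.59 ± 0.19, adjusted p = 6.46e-05). Mt1, a metallothionein that binds zinc and copper, was at 349, 226, and 32.5 CPM at ZT 8 and at 14.1, 25.6, and 30.4 CPM at ZT 20, so that Y48_3 almost reached the ZT 20 libraries. Its log2 fold change was -3.12 ± 0.66 (adjusted p = 0.0349), and the call held only without Y48_3 (adjusted p up to 0.142 without any other library).

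Syt1, a calcium sensor of vesicle fusion, fell from 25.4 ± 8.44 to 5.83 ± 1.59 CPM (adjusted p = 0.00417). Klhdc7a fell from 42.3 ± 16.6 to 9.61 ± 0.33 CPM (adjusted p = 0.00336). Krt23, a keratin, fell from 5.90 ± 2.91 to 1.25 ± 0.535 CPM (adjusted p = 0.0232) and lost its call without Y25_3, Y36_1, or Y41_2 (adjusted p up to 0.105). Zbed5 fell from 7.14 ± 3.46 to 1.72 ± 0.94 CPM (adjusted p = 0.0388) and lost its call without Y25_3, Y32_1, or Y38_3 (adjusted p up to 0.154).

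Lipid synthesis enzymes mostly did not pass. De novo lipogenesis had 2 of 21 genes higher and 1 lower (median log2 fold change 0.28), against -0.0032 over all genes tested. Lpin1, a phosphatidate phosphatase that also acts in the nucleus, fell from 272, 166, and 176 CPM to 61.1, 58.4, and 58.3 CPM (log2 fold change -1.79 ± 0.20, adjusted p = 0.00152). Pnpla3, a lipase of lipid droplets, rose from 3.15, 2.56, and 3.91 CPM to 36.8, 6.09, and 11.8 CPM, highest in Y25_3 (adjusted p = 0.0424). Insig2, which retains SREBP in the ER, rose from 267, 165, and 126 CPM to 381, 444, and 479 CPM (log2 fold change 1.23 ± 0.25, adjusted p = 0.0276). The calls of Pnpla3 and Insig2 were fragile, Pnpla3 being called only without Y32_1 and Insig2 only without Y38_3 or Y48_3 (adjusted p up to 0.135 and 0.102).

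The fatty acid genes that the study measured by PCR did not pass here. The log2 fold change was 0.62 ± 0.37 for Fasn, -0.02 ± 0.30 for Acaca, 0.28 ± 0.37 for Scd1, -0.55 ± 0.22 for Srebf1, 0.08 ± 0.18 for Fads1, and -0.38 ± 0.19 for Fads2, with adjusted p of at least 0.268. Scd1 was at 2451, 1359, and 3807 CPM at ZT 8 and at 4584, 1952, and 2708 CPM at ZT 20, a range within each hour wider than the difference between them. None of 6 genes of polyunsaturated fatty acid desaturation and elongation was called by edgeR or limma-trend, 2 had an unadjusted p under 0.05, and 1 was lower by DESeq2.

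Sterol synthesis had 2 of 24 genes higher and none lower (median 0.34), and 20 of 24 log2 fold changes were above 0, against 49.5% of all genes tested. Mvd rose from 3.40, 8.12, and 4.77 CPM to 36.03, 10.99, and 37.7 CPM (adjusted p = 0.0199), and Fdps from 1.61, 1.65, and 1.87 CPM to 10.3, 3.88, and 5.00 CPM (adjusted p = 0.0290), both enzymes between mevalonate and farnesyl pyrophosphate. The call of Mvd was lost without Y25_3, Y36_1, or Y38_3 and that of Fdps without any library but Y32_1 (adjusted p up to 0.0815 and 0.142).

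Bile acid synthesis had 3 of 18 genes higher and 1 lower (median 0.04). Nr0b2, the repressor SHP, rose from 8.23, 8.97, and 9.25 CPM to 27.7, 27.5, and 32.04 CPM (log2 fold change 1.72 ± 0.16, adjusted p = 4.56e-04). Cyp7a1, the rate-limiting enzyme of the classical pathway, fell from 90.1, 229, and 273 CPM to 77.3, 64.4, and 45.6 CPM (log2 fold change -1.66 ± 0.36, adjusted p = 0.0358), while Cyp8b1, which makes the cholic acid branch, rose from 109, 153, and 111 CPM to 290.0, 237, and 372 CPM (log2 fold change 1.27 ± 0.21, adjusted p = 0.00994). SHP and Cyp7a1 thus moved in opposite directions. The calls of Nr0b2 and Cyp8b1 held without each library in turn, and that of Cyp7a1 was lost without any library but Y38_3 (adjusted p up to 0.140). Hsd3b7, a further enzyme of the pathway, rose from 0.633 ± 0.441 to 3.32 ± 0.263 CPM (adjusted p = 0.0236) and held only without Y41_2.

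Of 16 genes of glycolysis and glycogen, 2 were higher and 4 lower (median 0.08). Ppp1r3c and Ppp1r3b, which target protein phosphatase to glycogen, rose, Ppp1r3c from 44.2, 51.3, and 40.1 CPM to 145, 175, and 139 CPM (log2 fold change 1.76 ± 0.17, adjusted p = 4.77e-04). Gys2, the liver glycogen synthase, fell from 247, 295, and 271 CPM to 129, 104, and 105 CPM (log2 fold change -1.27 ± 0.16, adjusted p = 0.00283). Slc2a2, the glucose transporter GLUT2, fell from 453, 444, and 502 CPM to 272, 223, and 207 CPM (log2 fold change -0.995 ± 0.16, adjusted p = 0.00879), and lost its call without Y32_1 (adjusted p = 0.0550). Ugp2, which makes UDP-glucose, and Pfkfb3, which makes an activator of glycolysis, also fell, with log2 fold changes of -0.83 ± 0.15 and -1.56 ± 0.21. Ppp1r3b lost its call without Y25_3, Y32_1, Y41_2, or Y48_3, and Ugp2 without any 1 of the ZT 20 libraries (adjusted p up to 0.108 and 0.0836).

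**Figure D4:**
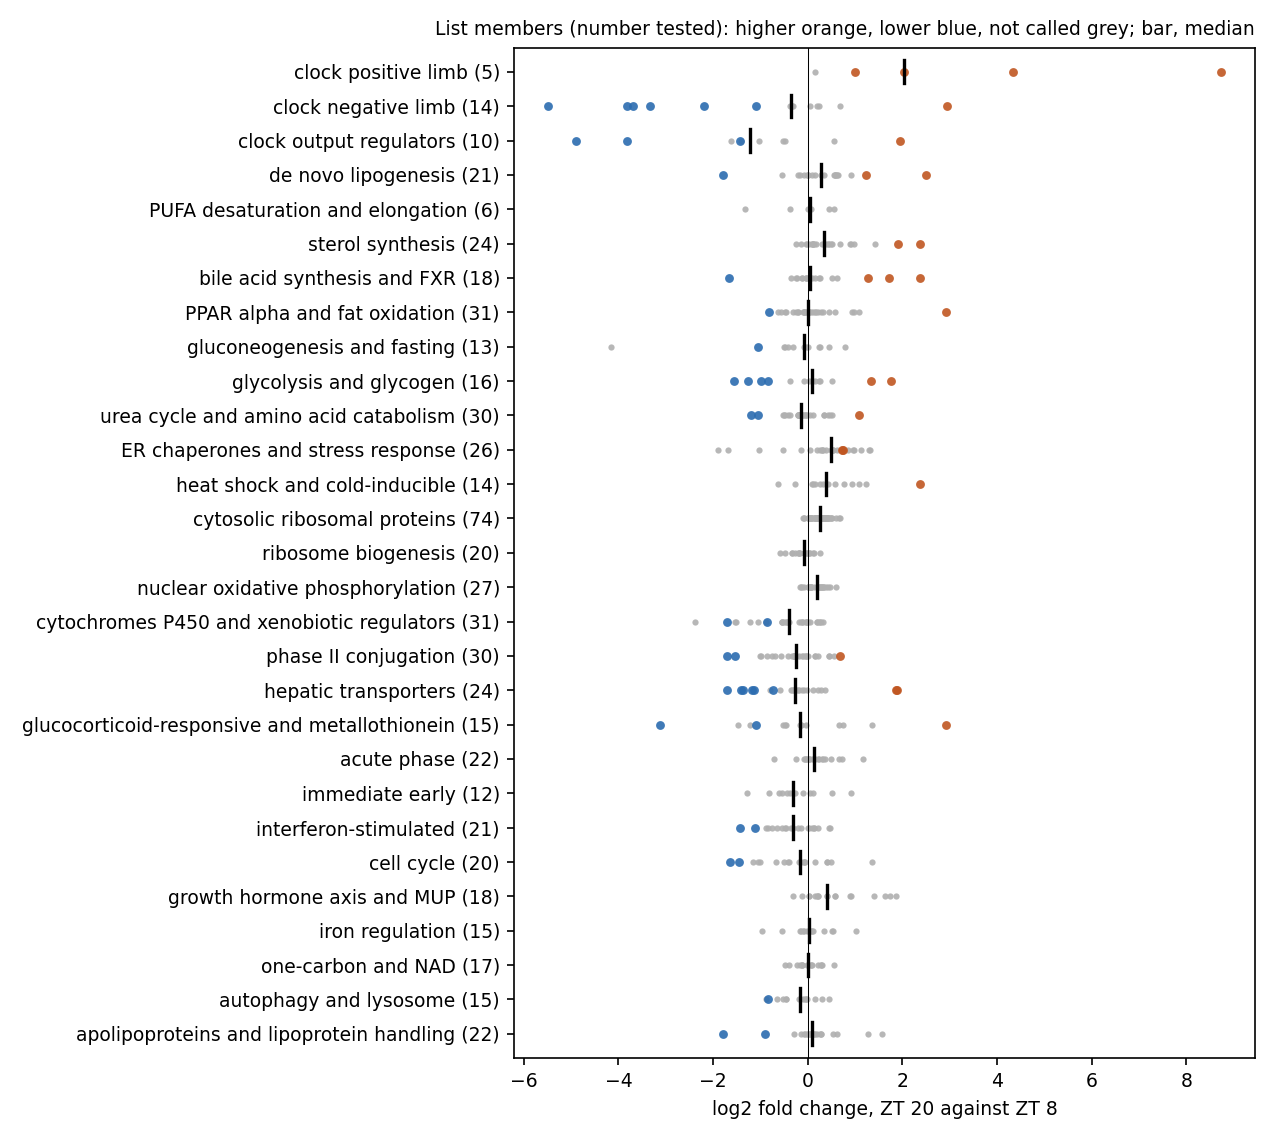
Log2 fold changes (x axis, ZT 20 against ZT 8) of the tested members of 29 pathway lists (y axis, number tested in brackets). Orange and blue points are members higher or lower at ZT 20, grey points did not pass, and black bars are list medians. The clock lists spread the widest, and the 74 ribosomal protein genes lie between -0.10 and 0.68.

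Gluconeogenesis had 1 of 13 genes lower (Sds, serine dehydratase), while Pck1 (-0.41 ± 0.27) and G6pc (0.27 ± 0.24) did not pass. Of 31 genes of PPAR alpha and fat oxidation, Pdk4 was higher and Bdh1, a ketone body dehydrogenase, lower (median 0.0019), and Cpt1a, the entry enzyme of fatty acids into mitochondria, had a log2 fold change of -0.57 ± 0.16 (adjusted p = 0.109). Among 30 genes of the urea cycle and amino acid catabolism, Gldc was higher and Oat and Sds lower (median -0.15). Sds lost its call without Y38_3 or any 1 of the ZT 20 libraries, Bdh1 without any library but Y48_3, Gldc without Y25_3, Y32_1, or Y38_3, and Oat without Y25_3, Y36_1, or Y41_2 (adjusted p up to 0.125).

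Of 26 ER chaperone and stress genes, 2 passed, Atf4 and Dnajb11, both higher, 17 had an unadjusted p under 0.05, and 21 had a log2 fold change above 0 (median 0.50). DESeq2 called 6 higher and 3 lower. Hspa5, the chaperone BiP, had a log2 fold change of 0.98 ± 0.31 (adjusted p = 0.149) and Hyou1 1.31 ± 0.31 (adjusted p = 0.0550). Of 14 heat shock and cold-inducible genes, Hspb1, a small heat shock protein, rose from 15.2, 6.30, and 5.96 CPM to 48.5, 49.7, and 44.4 CPM (log2 fold change 2.38 ± 0.32, adjusted p = 0.00381), and Hsp90aa1 had 1.08 ± 0.26 (adjusted p = 0.0635). Atf4 kept its call only without Y48_3, and Dnajb11 lost it without any 1 library (adjusted p up to 0.0980 and 0.174).

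Of 31 cytochromes P450 and their regulators, none was higher and 2 were lower, with 24 of 31 log2 fold changes below 0 (median -0.39). Cyp2a5, the coumarin hydroxylase, fell from 731, 1037, and 929 CPM to 361, 288, and 177 CPM (log2 fold change -1.71 ± 0.25, adjusted p = 0.00606). Cyp2e1, the ethanol-inducible P450, fell from 9664, 7976, and 7724 CPM to 4691, 4563, and 4747 CPM (log2 fold change -0.86 ± 0.16, adjusted p = 0.0185) and lost its call without Y38_3 or any 1 of the ZT 20 libraries (adjusted p up to 0.0820). Of 30 conjugation genes, Gsta3 was higher and Sult1c2 and Gstm3 lower (median -0.25). Gsta3 lost its call without any 1 library, Sult1c2 without Y25_3 or Y32_1, and Gstm3 without any library but Y25_3 or Y48_3 (adjusted p up to 0.168).

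Of 24 transporters, 2 were higher and 6 lower (median -0.27), against 1.59% and 1.20% of all genes tested. Abcg5 and Abcg8, the partners that export sterols into bile, fell together. Abcg5 went from 175, 174, and 174 CPM to 70.3, 82.6, and 79.7 CPM (log2 fold change -1.17 ± 0.14, adjusted p = 0.00263), and Abcg8 from 147, 179, and 157 CPM to 40.2, 79.8, and 66.6 CPM (log2 fold change -1.37 ± 0.23, adjusted p = 0.0120). Slc7a2, a cationic amino acid transporter, Slc38a2, a neutral amino acid transporter, Abcb1a, a drug export pump, and Slco1b2, an organic anion uptake carrier, also fell, with log2 fold changes of -1.71, -1.13, -1.42, and -0.73. Slc30a10, which exports manganese, rose from 33.03, 25.6, and 32.8 CPM to 122, 116, and 102 CPM (log2 fold change 1.89 ± 0.17, adjusted p = 3.12e-04), and Slc45a3 from 15.2 ± 5.00 to 55.3 ± 6.32 CPM. The calls of Abcg5, Abcg8, Slc30a10, and Slc45a3 held without each library in turn. That of Slc7a2 was lost without Y25_3 or Y36_1, that of Slc38a2 without Y32_1, that of Abcb1a without any library but Y25_3 or Y38_3, and that of Slco1b2 without any but Y41_2 (adjusted p up to 0.163).

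The cell cycle list had 2 of 20 genes lower and none higher by edgeR, while DESeq2 called 1 higher and 2 lower and limma-trend called 1 gene. Ccnd1, cyclin D1, fell from 72.2, 60.5, and 88.9 CPM to 31.2, 18.3, and 21.1 CPM (log2 fold change -1.65 ± 0.23, adjusted p = 0.00412), and Wee1, a kinase that holds back mitosis, from 23.1, 9.31, and 19.8 CPM to 7.18, 7.05, and 4.74 CPM (log2 fold change -1.46 ± 0.32, adjusted p = 0.0420; lost without any library but Y41_2, adjusted p up to 0.148). Of 21 interferon-stimulated genes, Ifi44 and Gbp3 were lower, and of 15 genes of autophagy and lysosome Ulk1 was lower. Ifi44 lost its call without Y32_1, Gbp3 without Y25_3, Y32_1, Y38_3, or Y41_2, and Ulk1 without Y38_3 or any 1 of the ZT 20 libraries (adjusted p up to 0.146). Of 15 glucocorticoid-responsive genes, which share Per1 and Klf9 with the clock lists, Pdk4 was higher and Per1 and Mt1 lower.

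No gene passed by edgeR or limma-trend among 74 cytosolic ribosomal proteins (median 0.27, 70 of 74 above 0), 27 nuclear oxidative phosphorylation genes (median 0.19), 20 ribosome biogenesis genes, 22 acute phase genes, 12 immediate early genes, 18 growth hormone and MUP genes, 15 iron genes, or 17 one-carbon and NAD genes. The summed ribosomal protein level was 7419 CPM in Y48_3 and 10310 to 13109 CPM in the other 5 libraries, and that of oxidative phosphorylation 5131 CPM in Y48_3 and 5865 to 6785 CPM in the others. The part of Y48_3 in these medians was not tested. An unadjusted p under 0.05 was found for 0, 0, 2, 2, 1, 6, 4, and 2 of the genes of the 8 lists, and DESeq2 called 0, 0, 0, 1, 0, 1, 1, and 0. Of the markers of other liver cells, none of 12 Kupffer cell, 10 endothelial, or 11 stellate cell genes passed by edgeR or limma-trend, with 0, 0, and 3 at an unadjusted p under 0.05, and DESeq2 called 1 stellate cell gene. None of the tested adipocyte (7), mammary (2), lymphocyte (1), erythroid (5), or acinar (1) markers passed by edgeR or limma-trend, 2, 0, 0, 0, and 1 had an unadjusted p under 0.05, and DESeq2 called 1 adipocyte marker. The cholangiocyte list had 1 of 3 tested genes higher, Sox9, from 1.19 ± 0.845 to 5.33 ± 0.837 CPM (adjusted p = 0.0303), which held only without Y38_3.

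To see whether other hours 12 h apart gave the same changes, the log2 fold changes of ZT 20 against ZT 8 and of ZT 16 against ZT 4, which share no library, were compared in 1 model of 12 HFD libraries. The difference between them passed for 86 of 12016 genes, 0.716% of those tested, with 53 above 0 and 33 below 0. Of the 335 genes called between ZT 20 and ZT 8, 331 had a value in this model, and 243 of them (73.4%) had the same sign between ZT 16 and ZT 4, against 60.3% of 11577 genes not called. Their median log2 fold change from ZT 4 to ZT 16 was 0.28 for the higher and -0.36 for the lower genes. Of the 86 genes, 57 (66.3%) were also called between ZT 20 and ZT 8, which is 17.01% of those 335. The difference contains the change from ZT 8 to ZT 20 in the same libraries, so an overlap is built in. DESeq2 found 242 genes with a difference, and leaving out Y36_1 gave 49. With edgeR and a spread shared by the 18 HFD libraries or by all 42, none passed (1021 and 470 genes at an unadjusted p under 0.05), so the calls of a difference below rest on the fit of 12 libraries.

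Arntl was higher at ZT 20 than at ZT 8 by 4.34 on the log2 scale but differed between ZT 16 and ZT 4 by only 0.51 ± 0.16, a difference of 3.82 (adjusted p = 3.63e-06). Loxl4 rose between ZT 8 and ZT 20 and fell between ZT 4 and ZT 16 (log2 fold change -1.68, difference 5.59), as did Npas2, whose libraries of both ZT 8 and ZT 16 lay at or near 0. Clpx, the ATPase of a mitochondrial protease, rose from 115, 120, and 87.8 CPM at ZT 8 to 380, 448, and 472 CPM at ZT 20, with a difference of 2.54, and Chka had a difference of 2.68.

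Coq10b, a coenzyme Q binding protein, fell from 63.9, 57.0, and 70.9 CPM to 20.2, 16.7, and 13.9 CPM and had a difference of -2.69. The processed pseudogene Gm17971 lies within it on the same strand and fell too, from 5.29 ± 2.35 to 0.616 ± 0.0359 CPM. Of the 28 clock genes, 11 had a difference that passed. Per1 fell by 1.08 between ZT 8 and ZT 20 and was higher by 1.19 at ZT 16 than at ZT 4, and Per3, Ciart, and Tef also had opposite signs in the 2 pairs of hours. Nr1d1 was lower in both, by 5.49 and 4.08, and its difference did not pass (adjusted p = 0.0942).

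**Figure D5:**
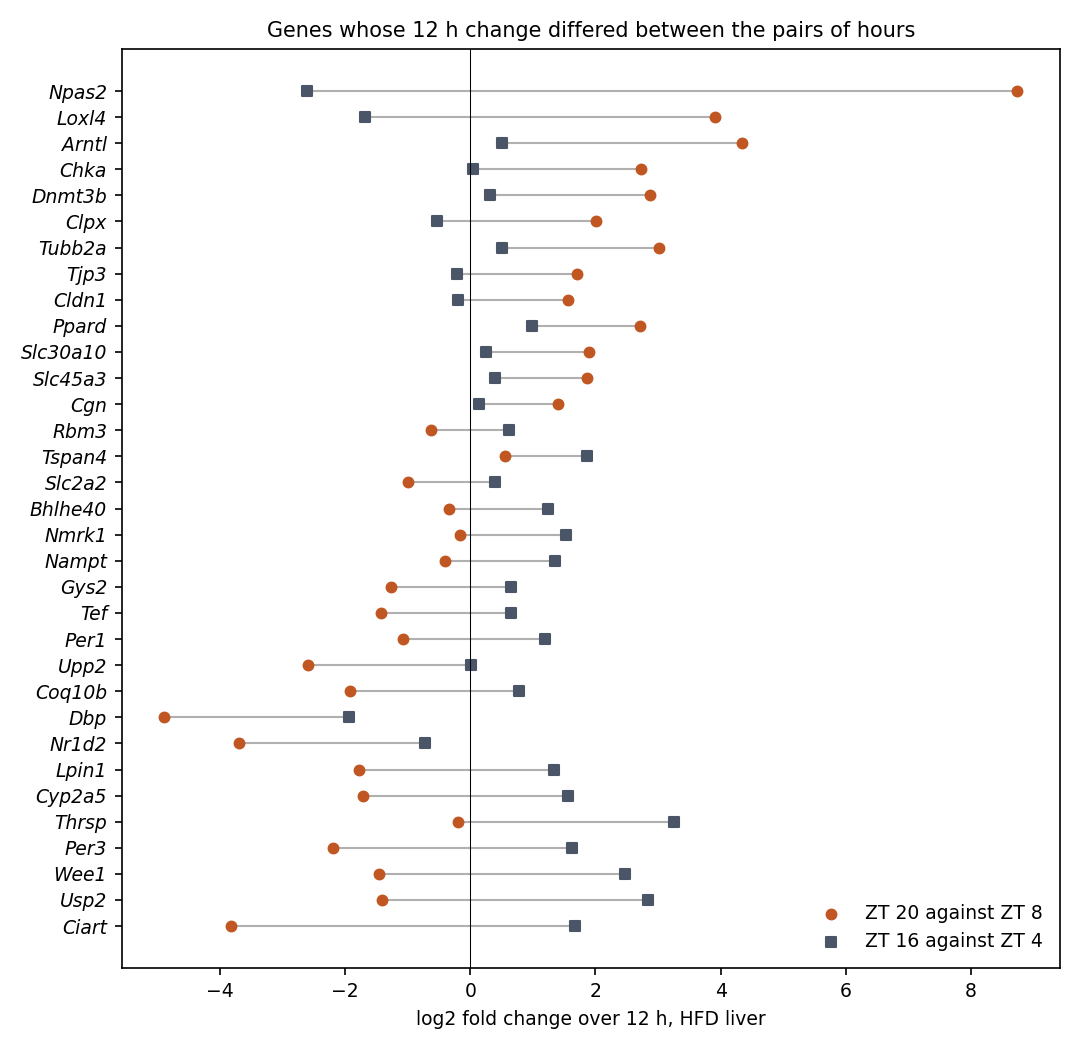
Log2 fold changes (x axis) of ZT 20 against ZT 8 (orange circles) and of ZT 16 against ZT 4 (dark squares) in HFD liver, for named genes (y axis) whose difference between the pairs of hours passed, ordered by that difference. The values run from Npas2 at the top, higher at ZT 20 than at ZT 8, to Ciart at the bottom, lower at ZT 20.

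The AIN93G libraries of ZT 8, scaled together with the 6, are given as values beside the HFD libraries. Arntl was at 1.70 ± 0.51 CPM (SD, n = 3), Npas2 at 0.181 ± 0.048, Cry1 at 8.30 ± 1.21, Nr1d1 at 86.1 ± 26.9, Dbp at 142 ± 35.8, Loxl4 at 1.37 ± 0.54, Tubb2a at 21.6 ± 5.98, and Upp2 at 615 ± 87.7 CPM. No test was run on these values.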

How the data were processed

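Poly(A) RNA of 42 samples labelled liver was sequenced (10 of them held under 100 CPM of Alb), and the authors deposited 1 table of counts per gene without normalization. The submitters' processing notes name fastp, STAR, HTSeq 0.6.1, and mm10, and of 54532 gene identifiers 54409 were in GENCODE M21. Groups were taken from the diet and time point labels, and no value column lacked a sample.

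Counts were analysed in R 4.3.3 with edgeR 4.0.16 (TMM factors, quasi-likelihood F-test, Benjamini-Hochberg adjustment), after retaining genes with a mean of at least 25 counts over the libraries compared. Standard errors were taken from the F statistic. Alternatives used DESeq2 1.42.0, limma-trend 3.58.1 (prior count of 2), other scalings, filters, and shared spreads, and omission of each library. All adjusted p-values are from edgeR unless another tool is named. The tests were also run on simulated counts with the same spread between libraries for every gene, unlike these data. The outcome is not given here.

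Genes named are the 12 largest rises and falls (protein coding, called, groups apart, at least 5 CPM), members of gene lists written by hand, the PCR genes, and the 6 smallest p of the difference test. Some genes are not reported here. Thra, Paxx, Gm17971, and the gene families of the closing section were chosen after their values were seen. The comparison, lists, and rule were chosen with earlier results of these data known. List names absent from the table were matched through RefSeq synonyms. Replicate pairs differed by more than counting noise (chi-square per degree of freedom of 35.5 to 71.9). The p-values and standard errors rest on the spread between these samples, and the floors cover counting error only.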

Additional observations from a re-analysis of the deposited data

Results flagged for a closer look

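The change over 12 h differed between the pairs of hours ZT 20 against ZT 8 and ZT 16 against ZT 4, by a test of the difference itself, for 86 genes (edgeR, 12 HFD libraries). The count was 49 without Y36_1, and 0 with the spread of 18 HFD libraries or of all 42 (1021 and 470 genes at an unadjusted p under 0.05), while DESeq2 gave 242. Among named genes, the difference of log2 fold changes was above 0 for Npas2 (11.3), Loxl4 (5.59), Arntl (3.82), Chka (2.68), Dnmt3b (2.56), Clpx (2.54), Tubb2a (2.51), Tjp3 (1.92), Cldn1 (1.75), Ppard (1.73), Slc30a10 (1.65), Slc45a3 (1.47), and Cgn (1.26). It was below 0 for Ciart (-5.49), Usp2 (-4.25), Wee1 (-3.93), Per3 (-3.82), Thrsp (-3.45), Cyp2a5 (-3.27), Lpin1 (-3.12), Nr1d2 (-2.98), Dbp (-2.95), Coq10b (-2.69), Upp2 (-2.6), Per1 (-2.28), Tef (-2.08), Gys2 (-1.91), Nampt (-1.77), Nmrk1 (-1.7), Bhlhe40 (-1.57), Slc2a2 (-1.39), Tspan4 (-1.31), and Rbm3 (-1.24). The value of Npas2 depends on the prior count, since its ZT 8 libraries held at most 1 count.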

How the results depend on the processing

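The direction of all 335 called genes held without each library in turn, which groups that do not overlap make all but certain. Library size and relative log expression scaling, limma-trend, the filters with a minimum count, and a spread shared by 18 HFD libraries kept the numbers of higher and lower genes within 1.5 times the reported 191 and 144. They were 354 and 294 with DESeq2, 501 and 401 with no filter, and 31 and 13 with a spread shared by all 42 libraries, 10 of which held under 100 CPM of Alb. With the spread of 17 HFD libraries, without the ZT 12 library Y39_1, they were 298 and 229. Leaving out 1 library gave 108 to 184 higher and 52 to 150 lower genes.

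The 86 genes with a difference between pairs of hours became 242 with DESeq2, 487 with no filter, and 49 to 122 without 1 library. With edgeR they became 0 with the spread of 18 HFD libraries (1021 genes at an unadjusted p under 0.05) and 0 with that of 42 (470 genes), and 113 with that of 17, again without Y39_1. The last setting was chosen after seeing the data. The causes of the remaining shifts were not tested.

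Among 1714 values of 108 named genes under the alternatives, 1416 kept their direction and side of the threshold, 280 lost a call, 9 gained one, and 9 turned in direction. Those 9 were uncalled genes without 1 library, whose log2 fold changes ranged from -0.33 to 0.29 for Acaca, from -0.12 to 0.70 for Scd1, from -0.020 to 0.23 for Fads1, from -0.0100 to 0.13 for Cry2, and from -0.0084 to 0.43 for Csnk1e. Depth limits genes near 3 counts per library. No paired analysis was possible because the ZT 20 and ZT 8 titles share no leading number. The numbers of all ZT 8 titles (Y38_3 to Y48_3) lie above those of all ZT 20 titles (Y25_3 to Y36_1). The ZT 4 numbers likewise lie above those of ZT 16. The labels do not say what the number marks, and its part cannot be told apart from that of the hour. At ZT 12, Y39_1 is the only HFD library with a number above that of Y36_1. Among the 12 libraries of the difference model, Y32_1 shares its number with Y32_3 and Y48_3 with Y48_2, 1 pair each.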

Other observations

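Other gene families were looked at after their values had been seen, so their counts are descriptions without a test of the family. They stand beside 1.59% of all genes tested that were higher and 1.20% that were lower. Of 6 claudins and 5 tight junction adaptors tested, 1 and 2 were higher at ZT 20 and none was lower. The claudin Cldn1 rose from 41.4, 75.5, and 55.7 CPM to 165, 146, and 199 CPM (log2 fold change 1.56 ± 0.23, edgeR adjusted p = 0.00543). The junction adaptors Tjp3 (1.70 ± 0.17) and Cgn, cingulin (1.40 ± 0.16), rose too, while the other 5 claudins tested and Tjp1 and Cgnl1 did not pass. Tjp3 was at 55.1, 54.9, and 55.4 CPM at ZT 20, against 16.5, 20.2, and 14.1 CPM at ZT 8.

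Of 12 co-chaperones of Hsp90 and Hsp70, Fkbp4 (0.83 ± 0.14), Stip1 (0.92 ± 0.17), and Hspa4l (1.00 ± 0.16) were higher and none was lower. Fkbp4 lost its call without Y32_1, Hspa4l without Y25_3, and Stip1 without any 1 of the ZT 20 libraries (adjusted p up to 0.0761).

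Of 11 genes of the Kennedy pathway and phospholipid turnover, Chka, Agpat2, and Selenoi were higher and Etnk2 and Gpcpd1 lower. Etnk2, an ethanolamine kinase, fell from 564, 546, and 449 CPM to 180, 247, and 190 CPM (log2 fold change -1.34 ± 0.18), whereas the choline kinase Chka rose. Gpcpd1, which breaks down glycerophosphocholine, fell from 158, 200, and 311 CPM to 34.4, 48.5, and 83.9 CPM (log2 fold change -2.004 ± 0.34, lost without Y32_1, adjusted p = 0.0712). Selenoi lost its call without 5 of the 6 libraries in turn (adjusted p up to 0.138).

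Of 8 tested Slc38 genes, Slc38a2, Slc38a3, and Slc38a4 fell and none rose, and Slc38a3 went from 1468, 1959, and 1880 CPM to 655, 688, and 791 CPM. Slc38a4 lost its call without any 1 of the ZT 20 libraries and Slc38a2 without Y32_1 (adjusted p up to 0.0892). Of 5 tested Slc2 genes, Slc2a2, Slc2a5, and Slc2a9 fell and none rose. Slc2a5, a fructose carrier, went from 8.30 ± 1.54 to 2.35 ± 0.885 CPM and lost its call without Y25_3 or Y32_1, and Slc2a9 lost it without any library but Y38_3 (adjusted p up to 0.183).

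Paxx overlaps Clic3 and rose by 2.28 ± 0.29 on the log2 scale. How reads were divided between these overlapping genes was not tested.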
